A study of Mus musculus with 2 samples.

Results

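Aminoacyl-tRNA synthetases are the enzymes that join each amino acid to its tRNA, the step that supplies charged tRNA to the ribosome. Mammalian cells use separate sets of these enzymes in the cytosol and in mitochondria, and both sets are encoded in the nucleus. By convention, a gene symbol with a final 2 names the mitochondrial enzyme. Several cytosolic members are held together with scaffold proteins in the multi-synthetase complex. T cells that are activated through the TCR are known to raise amino acid uptake and protein synthesis. The genes were chosen by symbol alone, as a capital letter followed by ars with an optional final 1 or 2, with *Eprs*, *Farsa* and *Farsb* added. Of 19938 genes with a value on the array, 34 met this rule, 18 of them cytosolic and 16 mitochondrial. *Aars* was measured only by a probe set that the annotation also assigns to *Exosc6*, so it has no value of its own.

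The data come from 2 microarrays, 1 per condition. CD3+CD4+ T cells were sorted from the pancreatic lymph nodes (PLN) of 8-week-old BDC mice, which are NOD mice that carry the rearranged TCR of a diabetogenic CD4+ T cell clone. The first condition is ND αCD4, a nondepleting antibody to CD4 (clone YTS177), and its control is treatment with an isotype control Ab (clone 2A3). Cells were taken 48 hours after the antibody was given. The labels state a dose of 1 mg in a phrase that names both antibodies but ties it to the isotype control Ab, and the methods give dose ranges that are higher for the isotype control Ab than for ND αCD4, so whether the doses were equal is not settled. By the methods, each sort pooled the PLN of 3 animals, and neither source gives the sex of the animals. The labels and the methods give different numbers for the BDC clone. With a single array of pooled mice in each condition, no difference below has a replicate check, an error or a p value, and precision is limited by the number of arrays. In RNA from a pool of cells, fewer cells that express a gene strongly and less of its mRNA per cell cannot be told apart.

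Values are array signals on the log2 scale, and each difference is a log2 ratio, the ND αCD4 value minus the isotype control value. Background was set at the 95th percentile of probe sets for olfactory and vomeronasal receptors, genes of sensory neurons, and a gene above it in 1 or both arrays counted as detected. Background was 7.57 in the ND αCD4 array and 7.65 in the isotype control array, and 13195 genes were detected. All 34 synthetase genes were above it in both arrays, with mean signals between 8.84 and 12.04. Because each gene has its own probes, signals of different genes are not set against each other. A difference was counted as large from 1.5-fold upward and as moderate from 1.2-fold upward. As a yardstick of technical spread, log2 ratios from different probe sets of the same gene had an SD of 0.0929 (550 genes with 2 detected probe sets), which does not cover differences between mice or sorts.

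Cytosolic synthetase mRNAs had lower signals after ND αCD4, by small amounts, and most mitochondrial synthetase mRNAs differed little. Of 18 cytosolic genes, 17 had a log2 ratio below 0, with a median of -0.24 and a range of -0.39 to 0.01. Of 16 mitochondrial genes, 10 had a log2 ratio below 0, with a median of -0.05 and a range of -0.33 to 0.06. Over all detected genes the median was -0.01, and 52.7% had a log2 ratio below 0. No synthetase gene reached 1.5-fold in either direction, a size at which 1.01% of detected genes were lower and 0.212% were higher. At 1.2-fold, 6 of 18 cytosolic and 2 of 16 mitochondrial genes were lower and none was higher, against 5.77% lower and 2.86% higher among all detected genes. Among the 7640 detected genes whose mean signal lay within the range of the synthetases, 6.69% were at least 1.2-fold lower. The size of the probe set spread was exceeded downward by 15 cytosolic and 5 mitochondrial genes, against 26.5% of detected genes. When each array was centred on the median of its detected genes, which moved every log2 ratio up by 0.0344, the share of detected genes below 0 was 42.3%, with 17 cytosolic and 9 mitochondrial genes below 0.

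**Figure D1:**
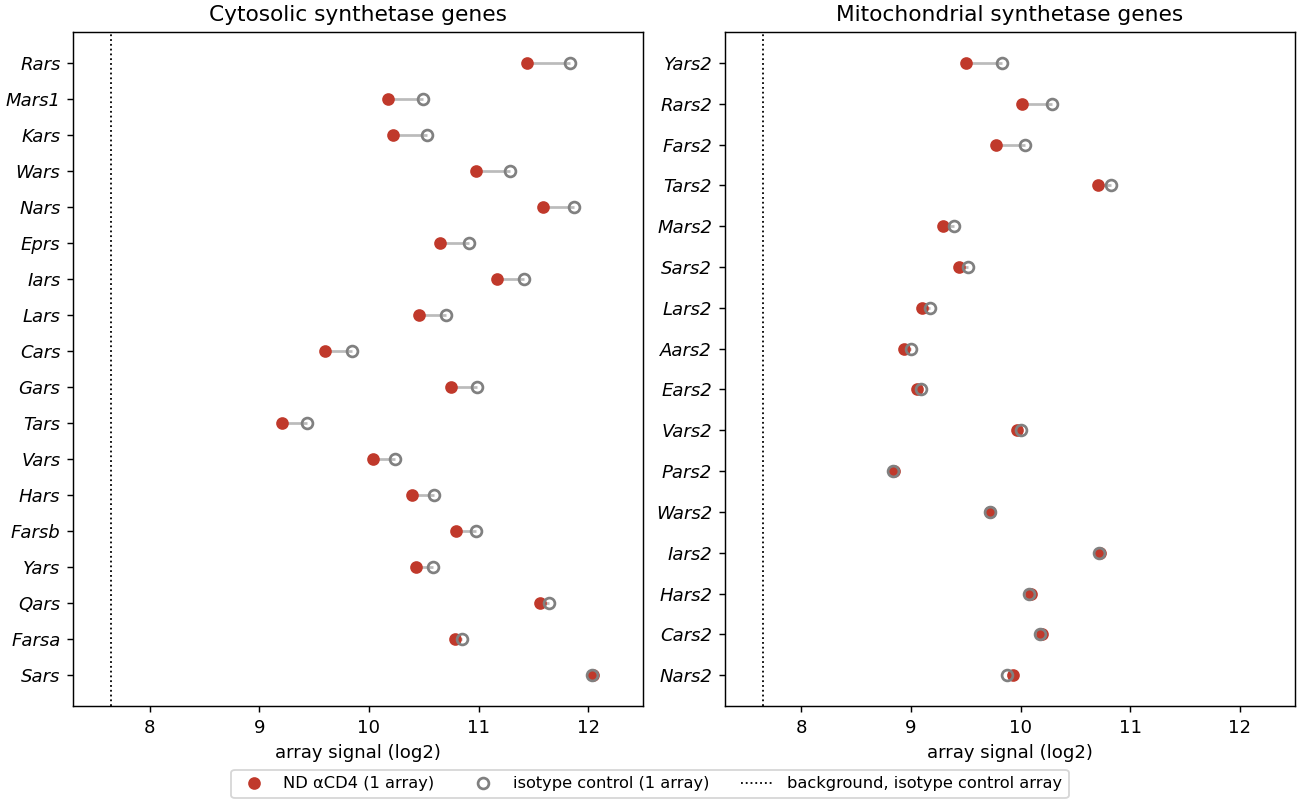
Array signal (log2, horizontal axis) of each synthetase gene in the ND αCD4 array (filled red) and the isotype control array (open gray), 1 array each, cytosolic genes left and mitochondrial genes right, ordered by log2 ratio. *Rars* shows the widest gap (11.44 after ND αCD4 and 11.83 after isotype control), *Sars* shows almost none (12.04 and 12.03), and all points lie above the background level of the isotype control array (7.65, dotted line).

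Of the multi-synthetase complex, the 7 cytosolic members reported here were all below 0, with a median of -0.27. Of these, 4 were at least 1.2-fold lower. *Rars*, the arginyl-tRNA synthetase on chromosome 11, had a signal of 11.44 in the ND αCD4 array and 11.83 in the isotype control array, a 1.31-fold lower level and the largest difference of the 34 genes. *Mars1* (chromosome 10) also charges the initiator tRNA that starts proteins made in the cytosol. Its signal was 10.18 after ND αCD4 and 10.49 after isotype control, 1.25-fold lower. *Kars* (chromosome 8), whose single gene supplies lysyl-tRNA synthetase to the cytosol and to mitochondria, had a signal of 10.22 after ND αCD4 and 10.53 after isotype control, also 1.25-fold lower. *Eprs* (chromosome 1) encodes glutamyl- and prolyl-tRNA synthetase in the same polypeptide, and its signal of 10.65 after ND αCD4, against 10.92 after isotype control, gave a log2 ratio of -0.27, just inside the moderate size. *Iars* and *Lars*, which charge the branched amino acids isoleucine and leucine, followed just outside it. *Iars* had a signal of 11.17 after ND αCD4 and 11.41 after isotype control, and its second probe set gave a similar log2 ratio (-0.27, against -0.24 for the brighter one used here). *Lars* had a signal of 10.46 after ND αCD4 and 10.70 after isotype control, a log2 ratio of -0.24. *Qars*, the glutaminyl-tRNA synthetase, stood apart from the other 6 members reported here. Its signal was 11.56 after ND αCD4 and 11.64 after isotype control, a log2 ratio of -0.08 that is within the probe set spread.

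The scaffold of this complex had log2 ratios of the same size as its enzymes. *Aimp2* had a signal of 10.11 after ND αCD4 and 10.48 after isotype control, 1.30-fold lower. *Aimp1* had a signal of 9.40 after ND αCD4 and 9.74 after isotype control, 1.27-fold lower. *Eef1e1*, which encodes the third scaffold protein (AIMP3), had a signal of 10.60 after ND αCD4 and 10.85 after isotype control, with a log2 ratio of -0.25. All 3 were thus below 0, with a median of -0.34.

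The 11 cytosolic synthetase genes reported here whose products act outside the complex had a median log2 ratio of -0.21, and 10 were below 0. *Wars*, the tryptophanyl-tRNA synthetase and a gene known to be induced by IFN-γ, had a signal of 10.98 after ND αCD4 and 11.28 after isotype control, 1.23-fold lower. *Nars*, for asparagine, had a signal of 11.59 after ND αCD4 and 11.87 after isotype control, 1.21-fold lower, and these were the members of this group past 1.2-fold. *Cars* (cysteine) had a log2 ratio of -0.24, *Gars* (glycine) of -0.23, *Tars* (threonine) of -0.23, *Vars* (valine) of -0.21 and *Hars* (histidine) of -0.20. Like *Kars*, *Gars* serves the cytosol and mitochondria from the same gene, and its signal was 10.75 after ND αCD4 and 10.98 after isotype control. *Yars*, for tyrosine, had a signal of 10.43 after ND αCD4 and 10.59 after isotype control, a log2 ratio of -0.16. Phenylalanyl-tRNA synthetase is built from a pair of subunits encoded by *Farsa* and *Farsb*. *Farsb*, the β subunit, had a signal of 10.79 after ND αCD4 and 10.98 after isotype control (-0.19), while *Farsa*, the α subunit, had a signal of 10.78 after ND αCD4 and 10.85 after isotype control (-0.06). *Sars*, which charges serine tRNA and the selenocysteine tRNA, was the cytosolic gene with a log2 ratio above 0, and its signals of 12.04 after ND αCD4 and 12.03 after isotype control were almost equal. The enzymes fall into a class I and a class II by the fold of their catalytic domain, and the medians were close, at -0.24 for 9 class I and -0.21 for 8 class II cytosolic genes (*Eprs* holds an enzyme of each class and is in neither count).

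**Figure D2:**
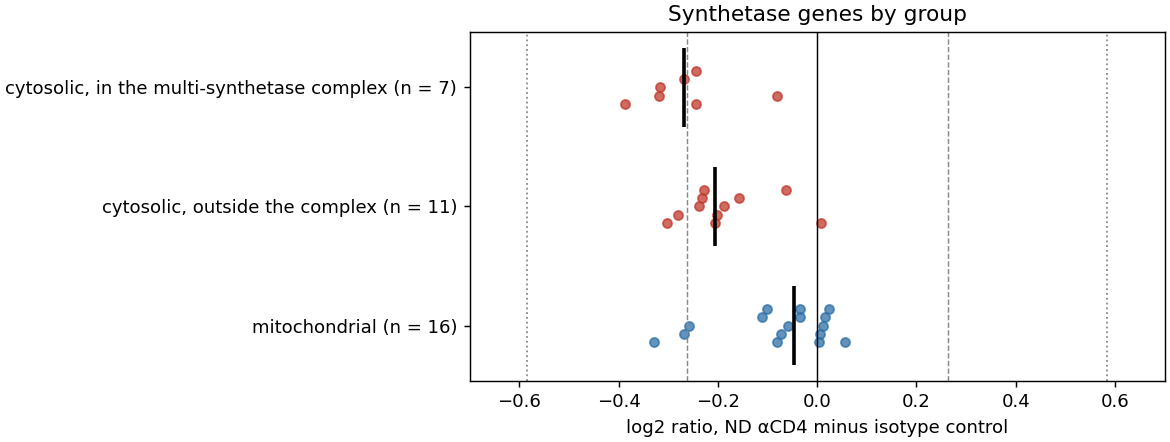
Log2 ratio (ND αCD4 minus isotype control, horizontal axis) of each synthetase gene, 1 point per gene, by group, where vertical bars give group medians, the solid line is 0 and the other lines mark 1.2-fold (dashed) and 1.5-fold (dotted). The medians are -0.27 for cytosolic genes in the multi-synthetase complex, -0.21 for those outside it and -0.05 for mitochondrial genes, and vertical position within a group carries no meaning.

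Promoter sequences are shown for the synthetase genes that carry the amino acid response motif, because genes of this family are known targets of ATF4, the transcription factor that is translated when amino acids run short. The motif was searched as TGATGNAA on both strands, with N any base, in RefSeq promoters of build GRCm38.p6 that run from 250 bases before to 50 bases after each start. Such a promoter was given for 25 of the 34 genes (26 promoters), and for *Cars*, *Hars*, *Hars2*, *Lars*, *Nars*, *Pars2*, *Rars*, *Vars* and *Wars* none was used. The motif was present in 4 of 11 cytosolic promoters and 0 of 15 mitochondrial promoters, against 3.97% of all 32851 promoters. In the stretches below, written 5′ to 3′ on the strand of the gene, capitals mark the motif in either orientation:
*Gars*, chr6:55037931-55038018, plus strand: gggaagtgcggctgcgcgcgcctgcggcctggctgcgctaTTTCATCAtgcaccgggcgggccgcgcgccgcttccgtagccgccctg
*Iars*, chr13:49682097-49682159, plus strand: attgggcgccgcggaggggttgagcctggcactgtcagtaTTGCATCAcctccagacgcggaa
*Tars*, chr15:11399629-11399713, minus strand: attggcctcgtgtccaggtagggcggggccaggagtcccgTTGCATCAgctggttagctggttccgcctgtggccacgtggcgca
*Yars*, chr4:129189866-129189932, plus strand: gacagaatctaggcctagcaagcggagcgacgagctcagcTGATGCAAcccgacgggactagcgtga
Counted from the start, where the first transcribed base is 1, the motif begins at position -30 in *Gars*, -15 in *Tars*, 8 in *Iars* and 4 in *Yars*. *Iars*, *Tars* and *Yars* share the same 8 bases, read as TGATGCAA in *Yars* and as its reverse complement in the others. The 4 genes had log2 ratios of -0.16 to -0.24, with a median of -0.23, and the 7 cytosolic genes whose promoter lacked the motif had a median of -0.19 and a wider range of -0.32 to 0.01. The E-box CACGTG, which Myc and related factors bind and which reads the same on both strands, was present in 4 of 26 synthetase promoters (*Farsb*, *Iars*, *Tars* and *Ears2*), against 7.15% of all promoters, and it did not overlap the other motif. In *Tars* it is the cacgtg near the end of the stretch above, and the remaining E-boxes lie outside the stretches shown. A match describes letters only and is not evidence of binding, and in so few promoters the shares are no more than counts.

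Most mitochondrial synthetase genes had nearly equal signals in both arrays, and 3 members formed the exception. *Yars2*, the mitochondrial tyrosyl-tRNA synthetase on chromosome 16, had a signal of 9.50 after ND αCD4 and 9.83 after isotype control, 1.26-fold lower and second only to *Rars* among all 34 genes. *Rars2* (arginine, chromosome 4) had a signal of 10.02 after ND αCD4 and 10.29 after isotype control, a log2 ratio of -0.27 and just inside the moderate size. *Fars2*, which unlike its cytosolic counterpart acts as a single polypeptide, had a signal of 9.78 after ND αCD4 and 10.04 after isotype control, and with a log2 ratio of -0.26 it was just outside. These 3 were picked out after their values were seen, and the other 13 had a median of -0.03 and a range of -0.11 to 0.06, with 7 below 0 and 6 above 0. At the lower end of that range were *Tars2* (10.71 after ND αCD4 and 10.82 after isotype control, threonine) and *Mars2* (9.29 and 9.39, methionine). *Sars2* had a log2 ratio of -0.08, *Lars2* of -0.07 and *Aars2* of -0.06. *Ears2* had one of -0.04 and *Vars2* of -0.03. *Ears2* charges glutamate onto mitochondrial tRNA for glutamate and also onto that for glutamine, as mitochondria have no glutaminyl-tRNA synthetase of their own. The 6 genes above 0 were *Pars2*, *Wars2*, *Iars2*, *Hars2*, *Cars2* and *Nars2*, and the highest was *Nars2*, with a signal of 9.93 after ND αCD4 and 9.88 after isotype control. The difference was smaller than the probe set spread in 11 of the 16 mitochondrial genes, from *Sars2* to *Nars2*, against 3 of the 18 cytosolic genes. Among all 13195 detected genes, 3495 were lower and 2645 higher by more than this spread, and the rest lay within it.

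Setting cytosolic against mitochondrial enzymes for the same amino acid gave 14 pairs over 13 amino acids, with *Fars2* set against both cytosolic subunits. In 10 pairs the cytosolic gene had the lower log2 ratio and in 4 the mitochondrial gene did. The median difference was -0.17, with a range of -0.34 to 0.19. A gap between log2 ratios of different genes has a wider technical spread than either ratio alone, so small gaps leave the order unsettled. The gaps of the *Sars* pair (0.09) and the *Farsb* pair (0.07) were below even the probe set spread of a single ratio (0.0929). Over all members, the cytosolic median was 0.19 log2 units below the mitochondrial one. The widest gap was that of the asparagine pair, with *Nars* at -0.28 and *Nars2* at 0.06. Tryptophan came next, with *Wars* at -0.30 and *Wars2* at 0.01. For cysteine, isoleucine and histidine, too, the cytosolic gene lay below -0.20 and the mitochondrial gene slightly above 0. *Hars* and *Hars2* are neighbours on chromosome 18 whose annotated spans overlap by 4 bases, and their log2 ratios were -0.20 and 0.02. *Vars* and *Vars2* share chromosome 17, with 43 protein-coding genes between them, and had log2 ratios of -0.21 and -0.03. The arginine pair differed from these in that both genes were low (*Rars* at -0.39 and *Rars2* at -0.27). The order was turned for tyrosine, with *Yars* at -0.16 and *Yars2* at -0.33, for serine, with *Sars* at 0.01 and *Sars2* at -0.08, and for both phenylalanine pairs. Members are not replicates of a condition, so no test was made of the difference between the compartments.

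**Figure D3:**
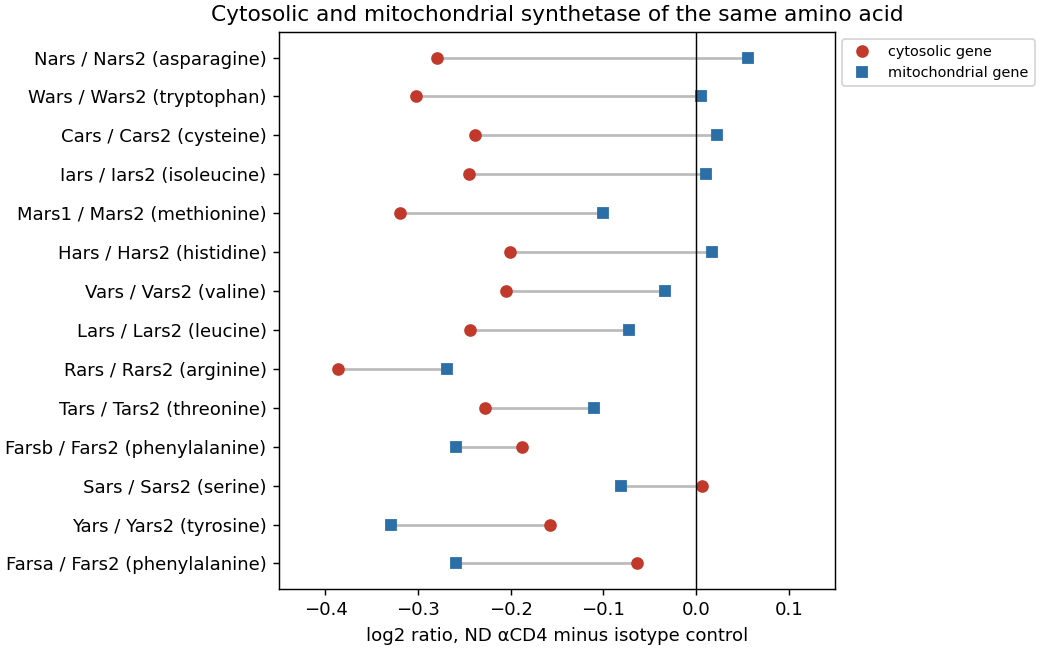
Log2 ratio (ND αCD4 minus isotype control, horizontal axis) of the cytosolic gene (red circle) and the mitochondrial gene (blue square) for the same amino acid, 1 row per pair, joined by a line. The circle lies left of the square in 10 of 14 pairs, from the asparagine pair at the top (-0.28 and 0.06) to the threonine pair (-0.23 and -0.11), and right of it in the 4 rows at the bottom.

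Other steps of the tRNA pathway were examined with lists of their own, and those for tRNA modification and tRNA maturation held genes with larger differences than any synthetase. The tRNA modification list had 34 of 41 detected genes below 0, 7 at least 1.2-fold lower, 2 at least 1.5-fold lower, none higher at either size and a median of -0.12. Over all detected genes these shares were 52.7% below 0, 5.77% at least 1.2-fold lower and 1.01% at least 1.5-fold lower. *Mettl1*, the methyltransferase that places 7-methylguanosine in tRNA, had a signal of 8.99 after ND αCD4 and 9.76 after isotype control, 1.71-fold lower. Its partner subunit *Wdr4* had a log2 ratio of -0.20. *Pus7*, a pseudouridine synthase, had a signal of 8.43 after ND αCD4 and 9.14 after isotype control, 1.65-fold lower. *Thg1l*, which adds a guanosine to histidine tRNA, was 1.31-fold lower and *Nsun2*, a cytosine methyltransferase, 1.24-fold lower. The tRNA maturation list had 19 of 22 detected genes below 0, 3 at least 1.2-fold lower and a median of -0.13. *Pop1*, a subunit of the RNase P that trims the 5′ end of tRNA, had a signal of 8.16 after ND αCD4 and 8.60 after isotype control, 1.35-fold lower. *Rpp25*, another subunit, was at least 1.54-fold lower, as it exceeded background in the isotype control array (8.19) but not in the ND αCD4 array (7.52). RNA polymerase III and its factors, which transcribe tRNA genes, had 12 of 18 detected genes below 0 and a median of -0.05, which for so few genes is close to the 52.7% and the median of -0.01 over all detected genes. *Polr3g* and *Gtf3c5* were 1.23-fold and 1.22-fold lower, and *Maf1*, a repressor of this polymerase, had a log2 ratio of 0.20.

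Genes that charge tRNA without a dedicated synthetase, or that proofread it, were examined in the same way. In the indirect charging list, 5 of 6 genes were below 0 and none reached 1.2-fold, with a median of -0.05. Over all detected genes, 52.7% were below 0, 5.77% at least 1.2-fold lower and 2.86% at least 1.2-fold higher. In lists as small as those of this paragraph, the numbers below 0 are no more than counts. *Gatb*, a subunit of the mitochondrial enzyme that turns glutamate on tRNA into glutamine, was the lowest at -0.26, and the other subunits *Gatc* and *Qrsl1* had log2 ratios of -0.02 and -0.06. *Pstk*, a kinase of the selenocysteine pathway, was the highest at 0.21. Among 6 detected synthetase-like and proofreading genes, 4 were below 0, with a median of -0.11, from *Aarsd1* at -0.14 to *Tarsl2*, a second threonyl-tRNA synthetase, at 0.15.

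The amino acid response list, which holds known ATF4 targets, went both ways, with 14 of 24 detected genes below 0 and 10 above 0 and a median of -0.05, a share below 0 near the 52.7% of all detected genes. Of the 24, 6 were at least 1.2-fold lower, 3 were at least 1.5-fold lower and none was at least 1.2-fold higher, against 5.77%, 1.01% and 2.86% of all detected genes. The 6 include *Slc6a9*, which was below background after ND αCD4 (7.50, against 7.85 after isotype control) and is known only to be at least 1.21-fold lower. The lowest were *Slc7a5*, a transporter of large neutral amino acids (10.96 after ND αCD4 and 11.64 after isotype control), *Psat1*, an enzyme of serine synthesis (9.95 and 10.62), and *Asns*, the asparagine synthetase (8.00 and 8.66). *Shmt2*, a mitochondrial enzyme of one-carbon metabolism, was 1.34-fold lower. *Atf4* itself, named here after its value was seen, had a log2 ratio of -0.03, and *Trib3* and *Ddit3*, targets linked to stress, had log2 ratios of 0.25 and 0.10. *Eif2ak4*, which encodes Gcn2, the kinase that senses uncharged tRNA, had a log2 ratio of 0.02, and *Gcn1*, its activator, of 0.05, these also named after their values were seen. In the list of Gcn2 and the other eIF2α kinases, *Eif2ak2*, the kinase PKR and an interferon-induced gene, was the lowest at 1.38-fold lower, and the median was 0.03.

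**Figure D4:**
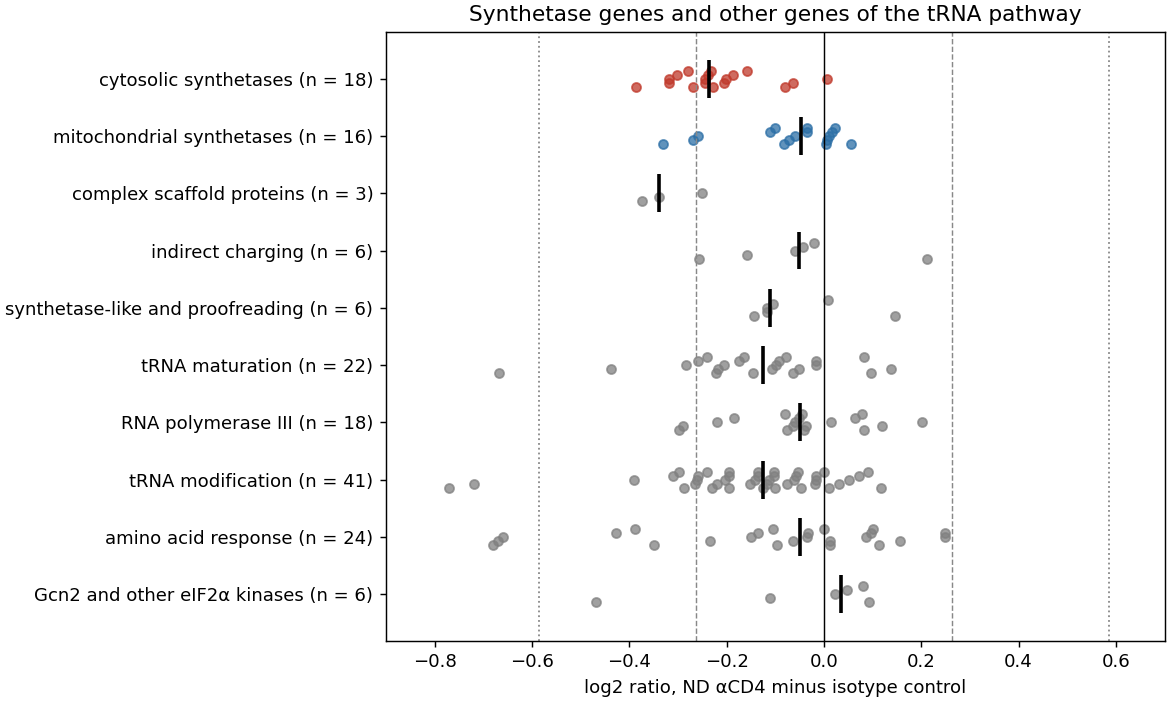
Log2 ratio (ND αCD4 minus isotype control, horizontal axis) of each detected gene of the synthetase groups and of 8 other lists, drawn as points, where vertical bars give list medians, the solid line is 0 and the other lines mark 1.2-fold (dashed) and 1.5-fold (dotted). The cytosolic synthetases (median -0.24) lie below 0 except for *Sars* at 0.01, the scaffold proteins lie in the same range (median -0.34), and lists such as tRNA modification (median -0.12) and amino acid response (median -0.05) spread further with a few genes beyond 1.5-fold. *Rpp25* and *Slc6a9* are drawn as measured although they were below background after ND αCD4.

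Other properties of the cell pools differed between the arrays along with the synthetase genes. Of 23 detected proliferation genes, 23 had a log2 ratio below 0 and 18 were at least 1.5-fold lower, against 52.7% and 1.01% of all detected genes. Their median was -0.70, with a summed signal of 14.37 after ND αCD4 and 15.06 after isotype control on the log2 scale. The log2 ratios ran from -1.58 for *Rrm2*, a subunit of ribonucleotide reductase, to -0.17 for the mitotic kinase *Aurka*, with *Mcm7*, a subunit of the replication helicase, at -0.74 and *Pcna*, the replication clamp, at -0.33. The count at 1.5-fold includes *Birc5*, which was below background after ND αCD4 and is known only to be at least 1.46-fold lower. The share of cycling cells in each pool was not measured by the arrays, and its part in the synthetase values was not tested. T cell markers were bright and nearly equal, with *Cd3e* at 13.78 after ND αCD4 and 13.76 after isotype control, *Cd3g* at 13.74 and 13.76, *Cd4* at 13.48 and 13.38, and a median log2 ratio of 0.02 over 9 detected of 10 listed genes. Of 6 CD8 T cell markers, 5 had a log2 ratio above 0, with a median of 0.17 and a summed signal of 13.42 after ND αCD4 and 13.25 after isotype control. Over all detected genes, 6158 of 13195 had a log2 ratio above 0. In lists as small as these cell type markers, the numbers above 0 are no more than counts. *Cd8a* had a signal of 10.39 after ND αCD4 and 9.67 after isotype control, 1.65-fold higher, and *Cd8b1* one of 11.83 after ND αCD4 and 11.38 after isotype control, 1.37-fold higher. *Eomes*, a transcription factor of this list, went the other way, with 11.41 after ND αCD4 and 11.72 after isotype control. Their part in the synthetase values was not tested. Among 4 detected of 9 natural killer markers, 3 were above 0, with a median log2 ratio of 0.26 and a summed signal of 11.82 after ND αCD4 and 11.65 after isotype control. *Klrd1* was at least 1.45-fold higher, above background after ND αCD4 (8.19) but not after isotype control (7.34), and *Gzma*, a granzyme, was 1.35-fold higher. *Klrd1* thus counted as detected only through the array where it was higher, and the median and sum use its log2 ratio and signals as measured (0.85 for the log2 ratio). *Nkg7* had a log2 ratio of 0.09 and *Tyrobp* of -0.04, while *Ncr1*, *Klrb1c*, *Klra8* and *Klrk1* did not exceed background in either array. The part of these markers in the synthetase values was not tested. Plasma cells were represented by 5 detected of 7 markers, 4 of them above 0, with a median log2 ratio of 0.06. *Xbp1* had a signal of 11.39 after ND αCD4 and 11.33 after isotype control, *Prdm1* had a log2 ratio of 0.24 and *Sdc1* one of -0.18. *Jchain* and *Tnfrsf17* did not exceed background in either array. Of the B cell markers, 6 of 8 were detected, with log2 ratios from 0.01 to 0.32 and a median of 0.12, and the summed signal was 11.32 after ND αCD4 and 11.20 after isotype control. *Fcer2a* (7.96 after ND αCD4 and 7.64 after isotype control) and *Cd79a* (7.64 and 7.35) exceeded background only after ND αCD4. They are known only to be at least 1.24-fold and 1.00-fold higher, and the range, median and sum use their values as measured. In the macrophage and monocyte list 5 of 9 markers were detected and 4 of these were above 0, with a median log2 ratio of 0.11 and a summed signal of 10.65 after ND αCD4 and 10.51 after isotype control. *Cd68* had a signal of 9.40 after ND αCD4 and 9.17 after isotype control, *Lyz2*, *C1qa* and *Fcgr1* were also above background in both arrays, and *Csf1r*, *Cd14* and *Adgre1* did not exceed it in either. The part of B cell, plasma cell and macrophage RNA in the synthetase values was not tested.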

How the data were processed

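RNA of sorted PLN CD3+CD4+ T cells was hybridized to 1 array per condition. The authors deposited log2 signals for 35557 probe sets. Affymetrix Expression Console is the tool in the submitters' processing notes. Not given in the sources used here are its version, background correction and normalization. Values ran from 2.52 to 14.7 with equal medians (8.15), from which a log2 scale was inferred. The probe set identifiers belong to an earlier mouse gene ST platform than the methods name.

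Probe sets with exactly 1 gene symbol (21789) were used, those with several (1621) or none (12147) were left out, and the probe set with the highest mean represented a gene. All 34 members matched RefSeq genes of GRCm38.p6 through their gene identifiers, with 0 changed symbols. Background came from 1193 receptor probe sets. A gene below background in 1 array has only a bound, computed against that array's background level. A single array per condition allows no test. Counts past the 1.5-fold rule were checked on a simulated array whose known fold changes were all larger than the rule. Counts at 1.2-fold, below 0 or past the probe set spread were not checked. Any member could be named, with full values for those past 1.2-fold, values or log2 ratios for the pairs, up to 4 detected genes of the largest log2 ratio per pathway list, and up to 2 of the highest signal per marker list. *Wdr4*, *Gatc*, *Qrsl1*, *Trib3*, *Ddit3*, *Cd4*, *Atf4*, *Eif2ak4*, *Gcn1*, *Slc6a9*, *Rrm2*, *Aurka*, *Birc5*, *Cd8a*, *Klrd1*, *Tyrobp*, *Cd79a*, *Fcer2a*, *Sdc1*, *C1qa*, *Fcgr1* and the markers below background were named outside this rule, after their values were seen. The members and lists were chosen with earlier results of these data known. The alternatives were quantile normalization, lowess correction (3 iterations, fraction 0.3), centring each array on the median of its detected genes, averaging probe sets, a floor at background, detection in both arrays, no filter, a 2-fold rule, and leaving out *Gars* and *Kars*. Protein sequences were not used here, and some genes of the family are not reported here. Tools were Python 3.11.15 with pandas 2.3.3, numpy 2.4.6, matplotlib 3.10.9 and statsmodels 0.14.6.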

Additional observations from a re-analysis of the deposited data

How the results depend on the processing

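As there are no replicates, shifts of single genes were set beside the probe set SD of 0.0929, and counts against a change of 1.5 times. The largest shift of a synthetase log2 ratio was 0.0344. That SD is no yardstick for a median, so medians are given as ranges. The cytosolic median ranged from -0.24 to -0.20, the mitochondrial median from -0.05 to -0.01, and their difference from -0.19 to -0.18, the lowest and highest over all alternatives, leaving out *Gars* and *Kars* included. The number of cytosolic genes below 0 was 17 of 18 under every scaling, filter, floor and probe set alternative, and 15 of 16 without *Gars* and *Kars*. The mitochondrial genes at least 1.2-fold lower numbered 1, not 2, with each array centred on the median of its detected genes, with lowess correction and with quantile normalization, and the cytosolic ones numbered 4 to 6. At 1.5-fold or 2-fold, 0 members were counted. The log2 ratio of *Vars2*, near 0, changed sign under that centring. No paired analysis was possible because each condition has 1 array, and for the same reason no replicate could be left out.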
